A study of Saccharomyces cerevisiae with 24 samples.

Results

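Cryptic unstable transcripts (CUTs) of budding yeast, *Saccharomyces cerevisiae*, were followed in strains with an inducible degron on a decapping factor. All 925 features that the deposited annotation lists with the type CUT_S_RNA were taken, of 12289 features in all. They were divided by what the annotation places on the same strand. An Xrn1-sensitive unstable transcript (XUT) or a stable unannotated transcript (SUT) overlapped 282 CUTs by at least 1 base, and these are called strand-sharing. No other feature lay on the strand of 167 CUTs, which are called lone. The other 476 overlapped only features of other types, among them 221 with a protein-coding feature and 180 with nothing but a CUT of a second set, named CUT_GIM. CUTs were 105 to 3433 bases long, with a median of 473 bases for strand-sharing and 393 bases for lone ones.

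CUTs arise where RNA polymerase II starts in both directions at promoters or at the 3' ends of genes. The Nrd1-Nab3-Sen1 complex ends their transcription early, the TRAMP complex adds a short poly(A) tail, and the nuclear exosome with its subunit Rrp6 degrades them. XUTs are named for the cytoplasmic 5'-3' exonuclease Xrn1, which can act on an RNA only once its cap has been removed. Dcp2 is the catalytic subunit of the decapping enzyme, and Lsm1 belongs to the Lsm1-7 ring, which binds the 3' ends of mRNAs and activates decapping.

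The groups with 4 libraries each were dcp2-ideg, a strain with an inducible degron for DCP2, at T60 and at T0; lsm1-ideg, with an inducible degron for LSM1, at T60 and at T0; and wt, labelled as wild type, at T60 and at T0. T60 cultures had received 100 µM of the auxin IAA and 1 µM beta-oestradiol for 60 min at 30 °C, wt included, and T0 cultures had not. All were grown in YPD to an A600 of 0.6 to 0.8, and poly(A) RNA was sequenced with the strand kept. A poly(A) library holds CUTs as far as they carry a tail long enough for the beads.

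The first 200 bases of 7 CUTs are printed because the early part of a CUT is where Nrd1 and Nab3 bind and because the results below turn on these transcripts. They are read 5' to 3' on the strand of the CUT from the RefSeq genome of build R64 (sacCer3). Capitals mark matches to GTAA or GTAG, the motifs of Nrd1, and to TCTT or CTTG, those of Nab3, with U written as T. TCTTG holds both Nab3 motifs and counts as 2 matches. CUT640 (chrVIII:129109-129308, minus strand), CUT696 (chrX:610273-610472, minus strand) and CUT672 (chrX:97306-97505, minus strand) share their strand with an XUT and were among the CUTs that rose most in dcp2-ideg. CUT605 (chrVII:525412-525611, minus strand), CUT105 (chrV:45065-45264, plus strand) and CUT199 (chrX:117990-118189, plus strand) are lone CUTs that rose. CUT207 (chrX:186890-187089, plus strand) runs antisense to LSM1 itself.
CUT640: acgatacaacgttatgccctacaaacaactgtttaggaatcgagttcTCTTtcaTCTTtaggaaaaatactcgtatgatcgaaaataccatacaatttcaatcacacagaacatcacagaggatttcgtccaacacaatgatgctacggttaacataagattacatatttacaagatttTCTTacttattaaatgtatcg
CUT696: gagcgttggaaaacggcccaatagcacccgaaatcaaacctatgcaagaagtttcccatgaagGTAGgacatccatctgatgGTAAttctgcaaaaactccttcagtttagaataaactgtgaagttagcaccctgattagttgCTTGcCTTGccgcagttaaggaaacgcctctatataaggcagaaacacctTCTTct
CUT672: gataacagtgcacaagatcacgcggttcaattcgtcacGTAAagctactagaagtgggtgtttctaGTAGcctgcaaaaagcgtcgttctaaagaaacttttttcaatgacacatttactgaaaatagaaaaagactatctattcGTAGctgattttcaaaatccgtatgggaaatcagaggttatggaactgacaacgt
CUT605: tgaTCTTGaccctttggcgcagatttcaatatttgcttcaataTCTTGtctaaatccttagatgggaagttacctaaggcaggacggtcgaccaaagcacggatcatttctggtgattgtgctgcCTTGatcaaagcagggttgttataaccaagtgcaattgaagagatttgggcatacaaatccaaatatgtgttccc
CUT105: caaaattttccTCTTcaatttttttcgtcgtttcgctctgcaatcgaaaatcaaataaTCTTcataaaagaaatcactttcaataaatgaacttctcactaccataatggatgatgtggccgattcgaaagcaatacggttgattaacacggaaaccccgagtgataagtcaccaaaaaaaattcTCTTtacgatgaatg
CUT199: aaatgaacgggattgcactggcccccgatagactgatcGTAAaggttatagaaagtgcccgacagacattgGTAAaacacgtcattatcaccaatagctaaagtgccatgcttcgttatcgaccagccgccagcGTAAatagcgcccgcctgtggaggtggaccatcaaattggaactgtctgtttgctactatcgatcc
CUT207: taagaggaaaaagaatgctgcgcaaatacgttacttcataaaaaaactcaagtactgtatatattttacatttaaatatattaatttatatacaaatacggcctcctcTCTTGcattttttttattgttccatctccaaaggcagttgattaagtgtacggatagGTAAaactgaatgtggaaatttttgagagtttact
The 3 strand-sharing starts held 0, 2 and 3 Nrd1 matches and 3, 3 and 0 Nab3 matches, in the order printed. The 3 lone starts held 0, 0 and 3 Nrd1 matches and 5, 3 and 0 Nab3 matches. Rising CUTs of both kinds thus included starts without a Nrd1 match and starts without a Nab3 match, but none of these starts lacked both. No match says only that these letters are absent from this window.

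Libraries held between 41.8 M and 83.9 M counts, of which CUTs took 0.122% to 0.304%, and 873 to 924 of the 925 CUTs had a count in a library. DCP2 mRNA averaged 68.1 ± 13.2 CPM in dcp2-ideg T60 against 124 ± 29.3 CPM at T0 (SD, n = 4 each), and LSM1 mRNA 87.8 ± 3.77 CPM in lsm1-ideg T60 against 102 ± 2.03 CPM at T0. CPM were computed with TMM factors, which were 1.29 to 1.49 in dcp2-ideg T60 libraries, and counts give RNA, not the degron-tagged proteins. The libraries wt T60 replicate 3 and dcp2-ideg T0 replicate 4 stood farther from their groups than the others did, with a mean distance of 0.841 and 0.871 on the log2 scale against 0.506 to 0.700. Whether the 4 replicates of a group were separate cultures is not in the labels, and the spread behind each p-value may be only technical. A change per cell and a change in the share of cells that make a transcript cannot be told apart in bulk RNA.

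The summed level of strand-sharing CUTs was higher at T60 in dcp2-ideg. It was 838 ± 91.2 CPM in dcp2-ideg T60 libraries, against 494 ± 39.5 CPM at T0 (SD, n = 4 each), a ratio of 1.70 between the means. The 4 dcp2-ideg T60 libraries ran from 756 to 955 CPM and the 4 T0 libraries from 449 to 544 CPM, so they did not overlap. Lone CUTs summed to 259 ± 32.6 CPM in dcp2-ideg T60 and to 220 ± 31.8 CPM at T0, and the ranges of 231 to 301 CPM and 191 to 263 CPM overlapped. This overlap depended on the TMM factors. As a share of all counts, lone CUTs took 0.0297% to 0.0408% in dcp2-ideg T60 libraries and 0.0173% to 0.0245% at T0, which did not overlap. Strand-sharing CUTs took 0.0974% to 0.129% and 0.0408% to 0.0506% in these groups. In lsm1-ideg, strand-sharing CUTs summed to 524 ± 8.36 CPM at T60 and 467 ± 32.2 CPM at T0, and lone CUTs to 221 ± 3.31 CPM and 190 ± 18.5 CPM at these times. In wt they summed to 521 ± 38.6 CPM at T60 and 508 ± 23.2 CPM at T0, and lone CUTs to 224 ± 13.9 CPM and 216 ± 16.1 CPM. The lsm1-ideg ratios of T60 to T0 were 1.12 for strand-sharing and 1.16 for lone CUTs, and the wt ratios were 1.03 and 1.04. The lsm1-ideg T60 means thus lay near the wt means, and its T0 means below them. In lsm1-ideg T0 against wt T0 the median log2 change was -0.20 for all CUTs, -0.22 for lone ones and -0.0075 for all features tested. Of CUT estimates, 29.7% were above 0. These estimates come from the same libraries and are not separate measures, and only CUT207 was called (below). CUTs with a protein-coding feature on their strand had a ratio of 0.914 in dcp2-ideg, and those with other non-coding features 1.01. As a mean share of all counts, the first took 0.075% in dcp2-ideg T60 and 0.056% at T0, and the second 0.040% and 0.027%.

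**Figure D1:**
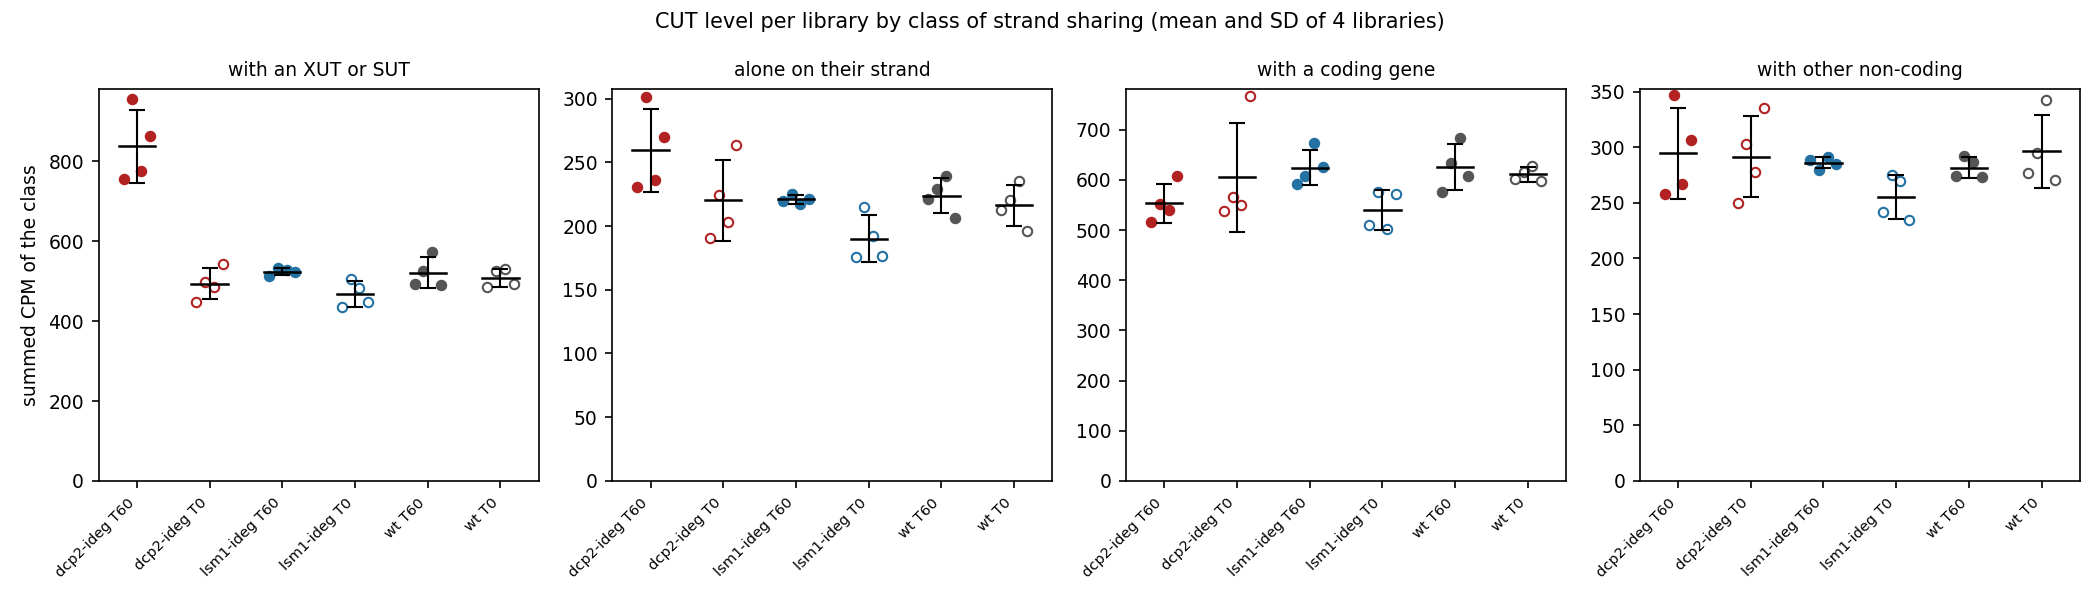
Summed level of CUTs in CPM (vertical axis, from 0) in each library, by strain and time (horizontal axis), in 4 panels by what shares the strand of the CUTs. Filled points are T60 libraries, open points T0 libraries, and bars the mean and SD of 4 libraries. Strand-sharing CUTs in dcp2-ideg T60 lie at 756 to 955 CPM, above all other libraries of that panel.

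The main comparison asked which CUTs changed in dcp2-ideg from T0 to T60 beyond the change in wt. Of the 907 CUTs with enough counts to test, 121 (13.3%) rose and 30 (3.31%) fell at an adjusted p under 0.05 in edgeR's quasi-likelihood test, where 18.5% of all 11776 features rose and 15.9% fell (34.4% in either direction). Among 281 tested strand-sharing CUTs, 74 (26.3%) rose and 3 (1.07%) fell. Among 163 tested lone CUTs, 13 (7.98%) rose and 6 (3.68%) fell. The median log2 change was 0.82 for strand-sharing CUTs (quartiles 0.22 and 1.46), 0.38 for lone CUTs (-0.34 and 1.03), 0.21 for the others (-0.40 and 0.96), and 0.07 for all features tested. XUTs and SUTs themselves had medians of 0.92 and 0.93, and protein-coding features -0.18. By median, strand-sharing CUTs thus lay near XUTs and SUTs, and lone CUTs between them and all features. The first closeness is not independent. These CUTs were chosen by their overlap with XUTs or SUTs and appear to share reads with them. Lone CUTs with a mean of at least 1 CPM did not lie between (below). No test was made between the classes. Without wt T60 replicate 3 and dcp2-ideg T0 replicate 4, 86 strand-sharing CUTs rose and 5 fell (median 0.98), and 18 lone CUTs rose and 5 fell (median 0.48).

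The scaling set the number of calls. With total counts as the scale, 259 CUTs rose and 1 fell, 34 and 0 of them lone, and with TMM factors from protein-coding features 176 rose and 11 fell, 22 and 2 of them lone. Of all features, 37.9% rose and 4.16% fell with total counts, and 25.3% and 9.83% with the coding TMM factors. The median of all features moved to 0.57 and 0.28 under these scales. The level also mattered for lone CUTs. The 69 lone CUTs with a mean of at least 1 CPM had a median of -0.04, whereas the 173 strand-sharing CUTs of that level kept a median of 0.74.

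**Figure D2:**
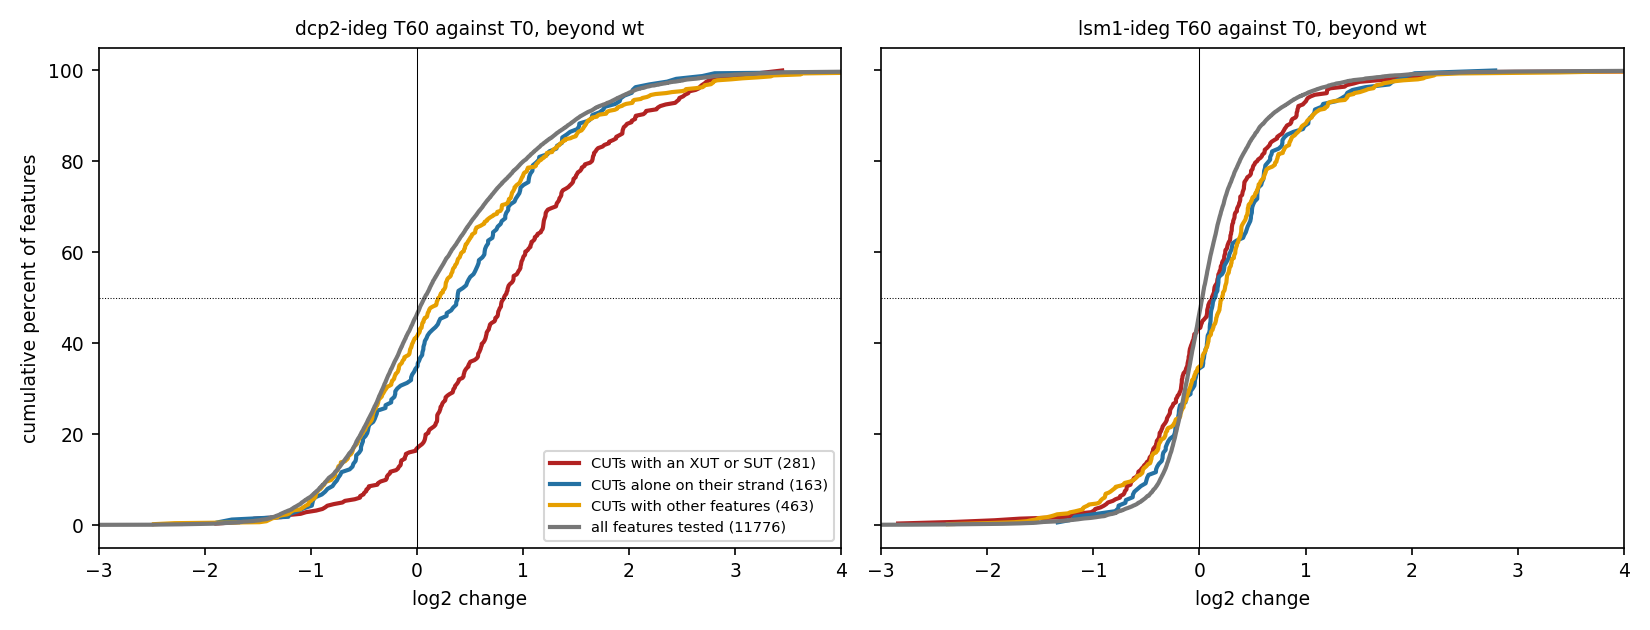
Cumulative percent of features (vertical axis) by log2 change from T0 to T60 beyond wt (horizontal axis, shown from -3 to 4) in dcp2-ideg (left) and lsm1-ideg (right), for CUTs by class and for all 11776 features tested. In dcp2-ideg the curve of strand-sharing CUTs crosses 50% at 0.82 and that of all features at 0.07, and in lsm1-ideg the medians are 0.12 and 0.03.

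Strand-sharing CUTs that also overlapped a SUT and an XUT had the highest median, 1.05 for 68 CUTs, of which 22 rose. Those with an XUT alone had a median of 0.79 (49 of 184 rose) and those with a SUT alone 0.54 (3 of 29 rose). The 53 CUTs that lay wholly inside XUTs or SUTs had a median of 1.00, and 21 rose. The 109 tested CUTs covered over less than 50% of their length had a median of 0.77, and 18 rose. Beside these counts, 18.5% of all features tested rose. CUTs with a SUT alone and those covered over less than 50% had smaller shares of risers than that. The XUT or SUT covered a median of 67.6% of a strand-sharing CUT.

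The strand-sharing CUT with the largest rise among those named was CUT251 (chromosome XII, 193672 to 194376, plus strand), which starts upstream of UBR2 on the other strand, a ubiquitin ligase gene, and shares its strand with XUT_12F-70 and the coding feature YLR025W. It had 3.21, 5.05, 3.77 and 7.13 CPM in dcp2-ideg T60, against 0.533, 0.901, 0.246 and 1.07 CPM at T0, a log2 change beyond wt of 2.84 ± 0.57 (SE, adjusted p = 3.65e-04 in edgeR). Its highest T0 library lay well below its lowest T60 library, and CUTs were named for a change between strains only if these libraries did not overlap. CUT640 runs antisense to DIA4, a gene for a seryl-tRNA synthetase of mitochondria, inside XUT_8R-64. It had 5.44, 6.19, 6.05 and 5.42 CPM in dcp2-ideg T60, against 1.69, 1.31, 1.65 and 0.501 CPM at T0 (log2 change 2.71 ± 0.48, adjusted p = 9.67e-05). Its wt libraries spanned 0.639 to 1.86 CPM at T60 and 1.40 to 2.06 CPM at T0. Every dcp2-ideg T60 library thus lay above every wt library, and also above every dcp2-ideg T0 library, as the naming rule required.

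CUT696 runs antisense to SFC1, the succinate-fumarate carrier of mitochondria, and its strand is shared with XUT_10R-234 and CUT697. It had 3.04, 3.09, 2.60 and 2.71 CPM in dcp2-ideg T60, against 0.514, 0.150, 0.563 and 0.564 CPM at T0 (log2 change 2.73 ± 0.53, adjusted p = 2.50e-04). By the same measure, the log2 change was 0.85 for SFC1 mRNA and 2.93 for XUT_10R-234. CUT696 also lay opposite SUT216, at only 3.69% of its count per base, and SUT216 had a log2 change of -1.13. CUT431 (chromosome XVI, 697126 to 697734, plus strand) had 4.27, 6.04, 3.91 and 2.87 CPM in dcp2-ideg T60, against 0.864, 1.07, 0.774 and 0.272 CPM at T0 (log2 change 2.69 ± 0.69, adjusted p = 0.00355). CUT483 (chromosome IV, 303837 to 304845, minus strand) lies inside XUT_4R-125, antisense to NDE2, an NADH dehydrogenase of the outer face of the inner mitochondrial membrane. It had 4.74, 6.21, 5.94 and 3.35 CPM in dcp2-ideg T60, against 0.808, 1.09, 1.69 and 0.460 CPM at T0 (log2 change 2.53 ± 0.61, adjusted p = 0.00213). None of these 3 CUTs had overlapping dcp2-ideg T60 and T0 libraries, which the naming rule required.

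The 3 strand-sharing CUTs that fell were CUT648, CUT786 and CUT281, the last outside the naming rule and named after its values were seen. CUT648 (chromosome VIII, 290666 to 290818, minus strand) lies on the feature of HXT1, a low-affinity glucose transporter, and touches SUT584 over only 0.654% of its length. It had 0.953, 1.63, 1.64 and 0.571 CPM in dcp2-ideg T60, against 3.75, 3.94, 3.17 and 2.70 CPM at T0 (log2 change -1.58 ± 0.46, adjusted p = 0.00936). SUT584 had a log2 change of 0.03, so CUT648 moved apart from it. CUT786 lies antisense to ERG2, a sterol isomerase, at 2.22% of the ERG2 count per base. It had 0.815, 1.16, 0.757 and 1.22 CPM in dcp2-ideg T60, against 2.21, 2.52, 2.04 and 3.20 CPM at T0 (log2 change -1.27 ± 0.36, adjusted p = 0.00782), and ERG2 itself had a log2 change of -1.22. CUT281 lies antisense to PHO84, the high-affinity phosphate transporter, and averaged 20.7 ± 8.89 CPM in dcp2-ideg T60 and 35.1 ± 6.18 CPM at T0, with overlapping libraries (log2 change -0.86 ± 0.29, adjusted p = 0.0243). CUT648 and CUT786 were not called under total count scaling, with adjusted p = 0.0577 and 0.112. Without wt T60 replicate 3, 5 strand-sharing CUTs fell.

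**Figure D3:**
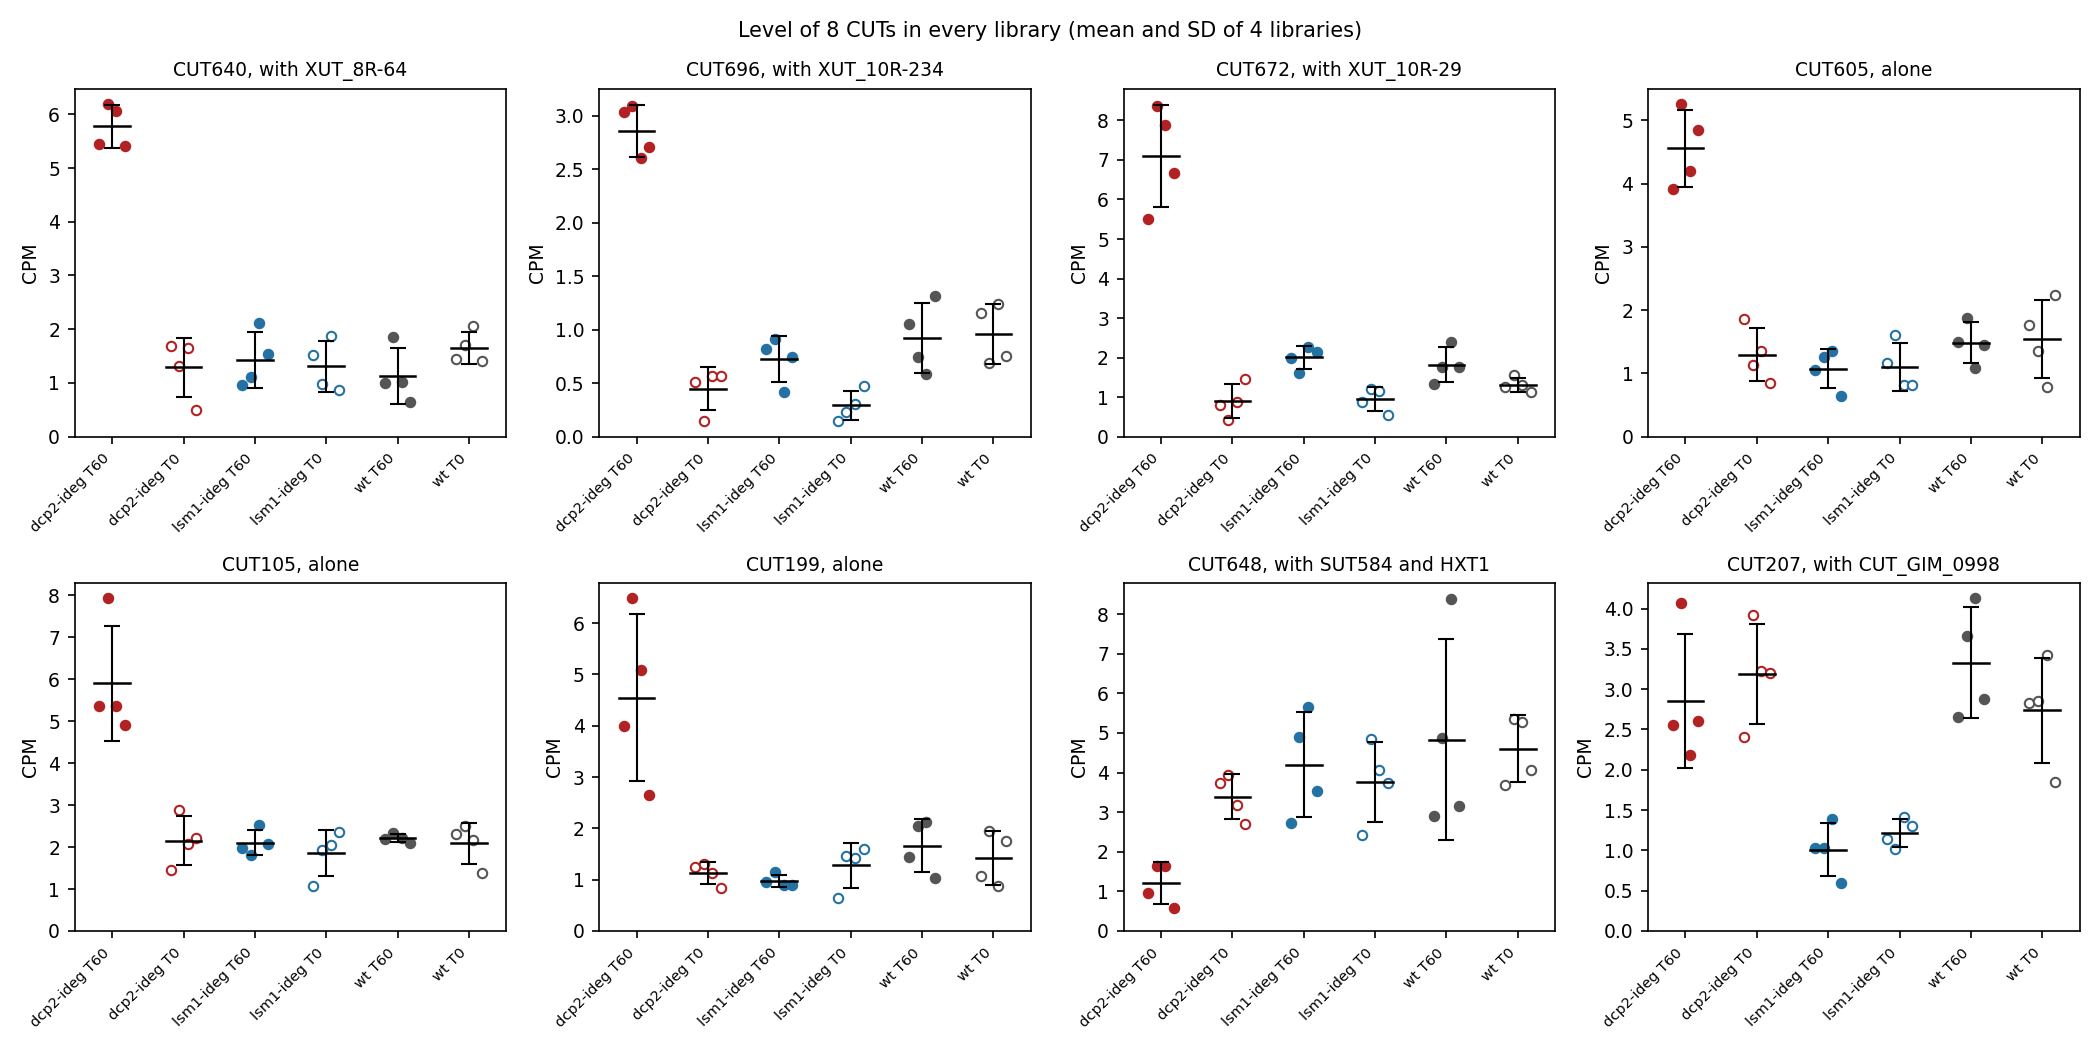
Level in CPM (vertical axis, from 0) of 8 CUTs in every library, by strain and time (horizontal axis). Filled points are T60 and open points T0 libraries, and bars the mean and SD of 4 libraries. CUT640, CUT696, CUT672, CUT605, CUT105 and CUT199 are highest in dcp2-ideg T60, CUT648 is lowest there, and CUT207 is lowest in both lsm1-ideg groups.

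A strand-sharing CUT and its XUT or SUT hold reads of each other, since a read over both features appears to be counted in both, although the counting setting is not given in the sources used here. For the 9 nested pairs below, no library had fewer counts in the XUT than in the CUT. Per base, the count of the CUT was a median of 88.4% of that of its XUT or SUT (quartiles 69.1% and 111%). Their log2 changes in dcp2-ideg beyond wt differed by a median of 0.26 over 281 pairs, with a Spearman rho of 0.76 that describes pairs with reads in common. For 9 CUTs the reads of the XUT outside the CUT could be taken apart, because the CUT lay inside a single XUT with nothing else there. CUT330 had 11.2 ± 1.51 CPM per kb in dcp2-ideg T60 and 2.90 ± 0.733 at T0, and the outer part of XUT_14F-123 had 7.26 ± 1.60 and 1.84 ± 0.371 in these groups. CUT483 had 5.02 ± 1.30 CPM per kb in dcp2-ideg T60 and 1.00 ± 0.516 at T0, beside 5.30 ± 1.34 and 1.47 ± 0.240 in the rest of XUT_4R-125. In both, the inner and the outer part had higher means at T60 than at T0. CUT607 had a ratio nearer to 1, with 4.13 ± 0.566 CPM per kb in dcp2-ideg T60 and 2.94 ± 0.642 at T0, where the rest of XUT_7R-262 had 3.14 ± 0.696 and 0.883 ± 0.604. CUT546, with the highest level of the 9, had 16.3 ± 4.07 CPM per kb in dcp2-ideg T60 and 11.6 ± 1.72 at T0, and the outer part of its XUT 6.96 ± 1.55 and 6.11 ± 1.86. CUT861 had 2.16 ± 0.417 CPM per kb in dcp2-ideg T60 and 2.47 ± 0.286 at T0. The rest of XUT_15R-346, with a mean of only 6.6 counts per library, had 1.89 ± 0.209 in dcp2-ideg T60 and was listed at 0 in all dcp2-ideg T0 libraries. CUT191 had 2.66 ± 0.496 and 2.34 ± 1.04 beside 1.12 ± 0.474 and 1.39 ± 0.757 in the rest of XUT_9F-111. The inner and outer means thus differed in direction for some of these pairs. How much of a strand-sharing CUT's change belongs to its XUT or SUT was not tested beyond these 9.

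Lone CUTs have no such partner on their own strand, though an XUT or SUT can lie on the other strand. CUT442 (chromosome I, 199986 to 200426, minus strand) had 2.45, 2.31, 2.36 and 3.33 CPM in dcp2-ideg T60, against 0.588, 1.15, 0.669 and 1.32 CPM at T0 (log2 change 1.91 ± 0.53, adjusted p = 0.00619 in edgeR). CUT442 lay opposite XUT_1F-90 at 20.4% of its count per base, and this XUT had a log2 change of 1.59. CUT605 runs antisense to UGA1, which encodes GABA transaminase. It had 3.92, 5.27, 4.21 and 4.86 CPM in dcp2-ideg T60, against 1.86, 1.13, 1.35 and 0.857 CPM at T0 (log2 change 1.87 ± 0.43, adjusted p = 0.00140). It lay at 9.70% of the UGA1 count per base, and UGA1 had a log2 change of 0.98. CUT199 runs antisense to PIR5, a gene of the Pir family of cell wall proteins, at 129% of its count per base. It had 3.99, 6.48, 5.08 and 2.65 CPM in dcp2-ideg T60, against 1.25, 1.31, 1.13 and 0.836 CPM at T0 (log2 change 1.77 ± 0.45, adjusted p = 0.00304), and PIR5 had a log2 change of -0.24. CUT199 thus lay at the level of its gene and moved apart from it.

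CUT105 runs antisense to SDD1 at 110% of its count per base. It had 5.36, 7.94, 5.37 and 4.92 CPM in dcp2-ideg T60, against 1.45, 2.87, 2.08 and 2.21 CPM at T0 (log2 change 1.37 ± 0.34, adjusted p = 0.00265), and SDD1 had a log2 change of 1.44. CUT124 (chromosome VI, 263318 to 263870, plus strand) had 5.68, 8.72, 5.37 and 6.51 CPM in dcp2-ideg T60, against 1.73, 2.08, 2.43 and 2.59 CPM at T0 (log2 change 1.23 ± 0.39, adjusted p = 0.0161). CUT465 (chromosome III, 147784 to 148080, minus strand), among the 5 lone CUTs with the highest level per length, had 8.57, 8.75, 8.49 and 10.7 CPM in dcp2-ideg T60, against 3.88, 3.77, 3.50 and 3.47 CPM at T0 (log2 change 1.15 ± 0.26, adjusted p = 0.00118). On the other strand, CUT124 lay opposite SUT531 (68.7% of its count per base, log2 change 2.62). CUT465 lay opposite XUT_3F-65 (151.5%, log2 change 1.25). None of these lone CUTs had overlapping dcp2-ideg T60 and T0 libraries, which the naming rule required of all but CUT465. Among the other 4 of highest level, CUT350 (antisense to BRE5, a cofactor of a ubiquitin protease) had 5.44, 7.50, 6.50 and 7.89 CPM in dcp2-ideg T60 and 5.18, 7.36, 5.97 and 7.54 CPM at T0, ranges that overlap (log2 change -0.46 ± 0.26, adjusted p = 0.179). CUT146, CUT096 and CUT789 did not pass beyond wt either, with log2 changes of 0.92, -0.99 and -0.20. Within dcp2-ideg, however, the T60 libraries of CUT146 all lay above those of T0 (log2 change 1.36, adjusted p = 0.00277 in edgeR). Those of CUT096 all lay below (-0.97, adjusted p = 0.0211). The libraries of CUT789 overlapped.

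The lone CUTs that fell ran antisense to a gene in all 6 cases, as did 76.1% of tested lone CUTs. CUT416 lies opposite SEC62, a subunit of the protein translocation channel of the endoplasmic reticulum, at 2.89% of its count per base. It had 1.01, 1.35, 0.720 and 1.18 CPM in dcp2-ideg T60, against 1.47, 2.18, 1.55 and 2.28 CPM at T0 (log2 change -1.21 ± 0.35, adjusted p = 0.00901), and SEC62 had a log2 change of -0.36. CUT037 lies opposite HIS7, an enzyme of histidine synthesis, at 6.57%. It had 1.74, 2.74, 1.64 and 2.69 CPM in dcp2-ideg T60, against 2.96, 4.56, 3.84 and 6.71 CPM at T0 (log2 change -1.12 ± 0.31, adjusted p = 0.00637), and HIS7 had a log2 change of -0.85. CUT158 lies opposite MTR3, a core subunit of the exosome, at 4.10%. It had 2.39, 3.05, 1.92 and 2.10 CPM in dcp2-ideg T60, against 3.40, 3.25, 3.78 and 5.75 CPM at T0 (log2 change -0.98 ± 0.32, adjusted p = 0.0197), and MTR3 had a log2 change of -0.67. The dcp2-ideg T60 libraries of all 3 lay below the T0 libraries, and the naming rule required that they not overlap. Under total count scaling none of the 3 was called (adjusted p = 0.130, 0.145 and 0.241). Without wt T60 replicate 3, or without dcp2-ideg T60 replicate 2, 10 lone CUTs fell.

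Counts on the strand opposite a strong gene can hold reads of that gene, so the opposite strand was measured for every CUT. Of 763 CUTs that overlap a feature on the other strand, 392 had less than 10% of its count per base, among them 108 strand-sharing and 92 lone CUTs. Lone CUTs with at least that share had a median log2 change of 0.49 in dcp2-ideg beyond wt (53 tested, 9 rose and 2 fell), and those below it 0.13 (90 tested, 3 rose and 4 fell). Strand-sharing CUTs had 0.97 at or above the limit (136 tested, 46 rose and 0 fell) and 0.50 below it (107 tested, 18 rose and 2 fell). Where no feature lay opposite, lone CUTs had a median of 0.93 (20 tested, 1 rose and 0 fell) and strand-sharing CUTs 0.97 (38 tested, 10 rose and 1 fell). Beside these counts, 18.5% of all features tested rose and 15.9% fell. Every lone set, and the strand-sharing CUTs below the limit, had a smaller share of risers than that. The class medians thus lay closest together among CUTs with nothing opposite. The 127 lone antisense CUTs had a median of 7.11% of the count per base of their gene. What part of these low counts came from the other strand was not tested.

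By position, a CUT was called antisense if it overlapped a protein-coding feature on the other strand by at least 1 base. CUTs that were not antisense and started within 500 bases upstream of a gene on the other strand were called divergent. Divergent CUTs had the highest median change, 0.95. Of 126 tested divergent CUTs, 24 (19.05%) rose and 0 fell, beside the 18.5% of all features that rose, with 35 at an unadjusted p under 0.05 in either direction. DESeq2 was not summarised by position. The 630 tested antisense CUTs had a median of 0.34 (79 rose, 12.5%, and 19 fell), and the 151 at neither position 0.42 (18 rose, 11.9%, and 11 fell). Among lone CUTs the 15 divergent ones had a median of 1.25 and all 15 estimates were above 0, although only CUT575 and CUT730 passed the test, both of which were named after their values were seen. None of the 16 lone divergent CUTs had a mean of 1 CPM over all libraries. CUT575, upstream of the cohesin gene SMC1, averaged 1.88 ± 0.334 CPM in dcp2-ideg T60 and 0.224 ± 0.176 CPM at T0 (log2 change 2.81 ± 0.96, adjusted p = 0.0253). The genes beside divergent CUTs had a median change of -0.29, and 69 of 125 pairs lay on different sides of 0 while 41 lay above it together. The change of the CUT was above that of the gene in 107 of 125 pairs.

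CUT672 starts upstream of CPS1, a vacuolar carboxypeptidase gene, inside XUT_10R-29. It had 5.50, 8.37, 7.88 and 6.68 CPM in dcp2-ideg T60, against 0.808, 0.432, 0.880 and 1.46 CPM at T0 (log2 change within the strain 2.99 ± 0.29, adjusted p = 7.58e-09 in edgeR). CPS1 had a log2 change of 0.21 beyond wt. CUT526 starts upstream of ARO10, a decarboxylase of aromatic amino acid breakdown, and overlaps SDH6, an assembly factor of succinate dehydrogenase, on its strand. It had 5.89, 6.01, 8.42 and 9.45 CPM in dcp2-ideg T60, against 0.349, 0.939, 0.862 and 1.13 CPM at T0 (log2 change within the strain 3.18 ± 0.36, adjusted p = 7.50e-08). Beyond wt, the log2 change was 2.63 for CUT526, 1.93 for SDH6 and 2.06 for ARO10, all above 0. For UBR2, next to CUT251, it was -0.03.

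**Figure D4:**
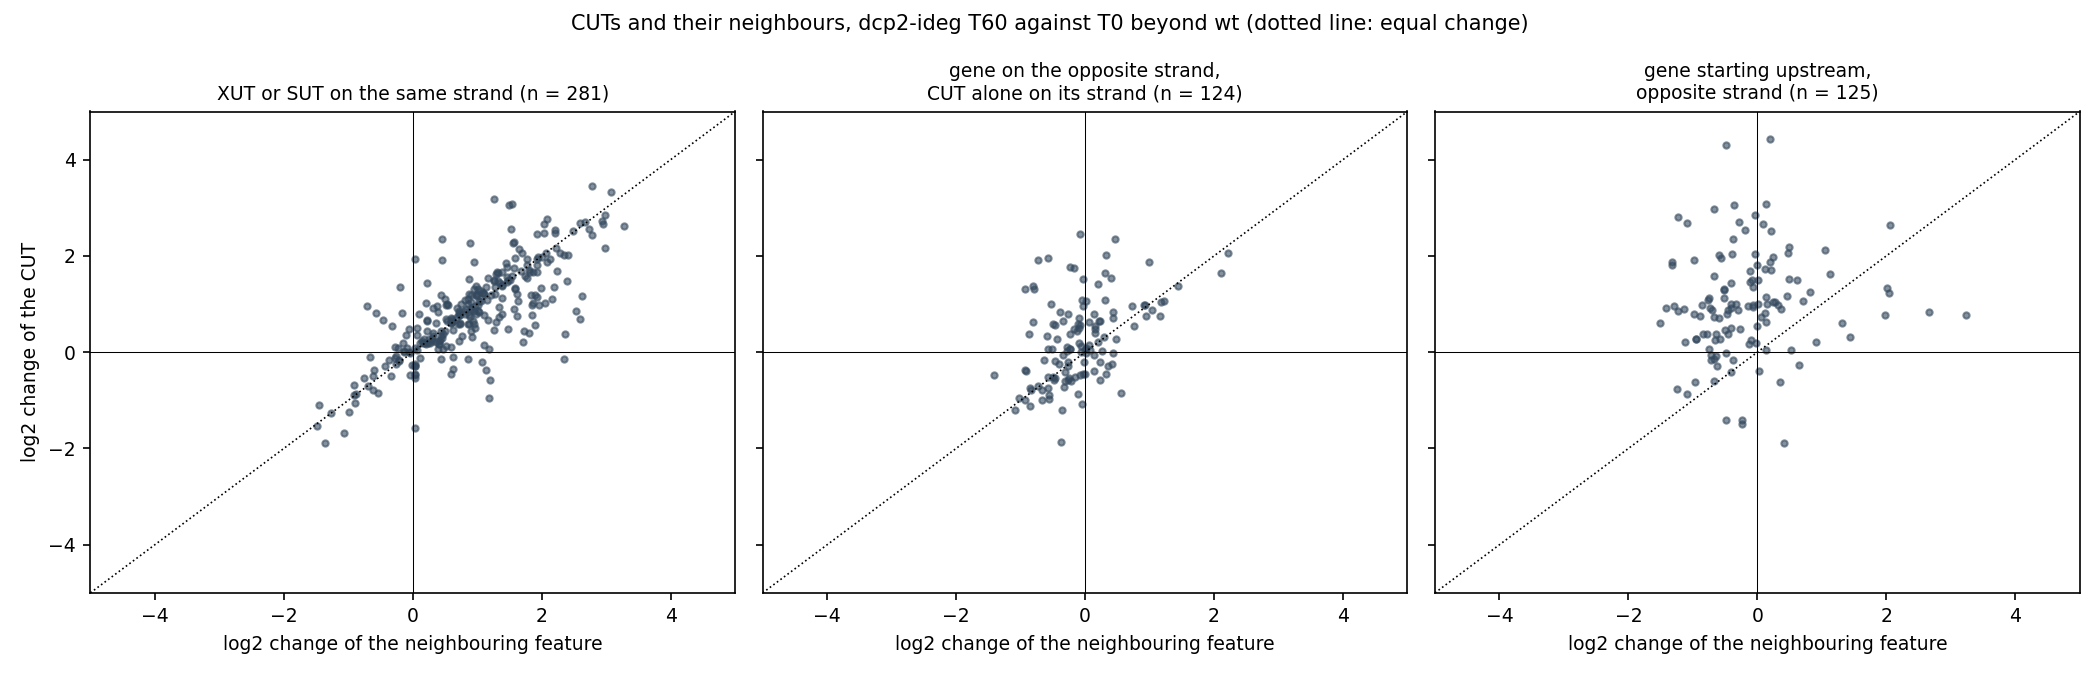
Log2 change of each CUT (vertical axis) against that of its neighbour (horizontal axis) in dcp2-ideg from T0 to T60 beyond wt, for an XUT or SUT on the same strand (left, 281 pairs that share reads), the gene opposite a lone CUT (middle, 124 pairs) and the gene downstream of a divergent CUT's start on the other strand (right, 125 pairs). The dotted line marks equal change. Points on the left follow the line, with a median difference of 0.26, and those on the right lie mostly above it, with medians of 0.94 for CUTs and -0.29 for genes.

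CUTs on the strand of a protein-coding feature had a median log2 change of 0.16 in dcp2-ideg beyond wt (215 tested, 23 rose and 16 fell). Both counts are smaller shares than the 18.5% of all features that rose and the 15.9% that fell. The count per base of these CUTs was a median of 6.45% of that of the gene. Their counts can hold mRNA reads. CUT122 lies on HSP12, a membrane protein of the stress response, and had 5.76, 5.82, 6.85 and 10.5 CPM in dcp2-ideg T60, against 2.22, 1.05, 1.62 and 1.75 CPM at T0. Its change beyond wt was 2.71 ± 0.48 (adjusted p = 1.07e-04 in edgeR) and that of HSP12 2.04. CUT559 shares its strand with CUT_GIM_0043 and lies antisense to RNR1, the large subunit of ribonucleotide reductase, at 3.19% of its count per base. It had 0.843, 1.59, 0.904 and 0.584 CPM in dcp2-ideg T60, against 2.09, 3.25, 3.43 and 2.49 CPM at T0 (log2 change within the strain -1.52 ± 0.26, adjusted p = 2.44e-05). Beyond wt, the log2 change was -1.20 for CUT559 and -1.65 for RNR1. The share of mRNA reads in these CUTs was not tested.

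In lsm1-ideg, 0 of 907 CUTs were called beyond wt in edgeR, where 0.212% of all features were (0.187% higher and 0.0255% lower). At an unadjusted p under 0.05 there were 48 CUTs, near the number that chance alone gives at that limit. DESeq2 called 4 CUTs, all higher, where it called 0.518% of all features higher and 0.246% lower. Median log2 changes were 0.12 for strand-sharing, 0.15 for lone and 0.21 for the other CUTs, against 0.03 for all features. The SE of a CUT had a median of 0.57 on the log2 scale (quartiles 0.42 and 0.78), so a change of that size was not detectable in a typical CUT at this depth. Larger changes were mostly missed as well. In counts simulated with the spread estimated here, 6 of 100 CUTs raised 2-fold in lsm1-ideg T60 were called beyond wt, and 38 of 100 raised 4-fold. The strand-sharing CUTs named above for their rise in dcp2-ideg gave 1.05 ± 0.58 for CUT251, 1.37 ± 0.54 for CUT696 and 0.68 ± 0.48 for CUT640 (adjusted p = 0.722, 0.505 and 0.806). The lone CUTs CUT605 and CUT105 gave 0.03 ± 0.44 and 0.10 ± 0.34 (adjusted p = 0.994 and 0.976). None of these 5 passed. CUT640 had 0.963, 1.11, 2.12 and 1.53 CPM in lsm1-ideg T60 and 1.52, 0.982, 1.88 and 0.865 CPM at T0, and CUT605 had 1.05, 1.26, 1.35 and 0.648 CPM in lsm1-ideg T60 and 1.16, 1.61, 0.817 and 0.820 CPM at T0. The T60 and T0 libraries of both overlapped.

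Within lsm1-ideg alone, T60 against T0, 7 CUTs rose and 0 fell in edgeR, where 1.12% of all features rose and 0.73% fell (1.85% in either direction). There were 62 CUTs at an unadjusted p under 0.05 in either direction. DESeq2 gave 15 calls among CUTs, where it called 1.98% of all features higher and 1.60% lower. Within dcp2-ideg, 235 rose and 71 fell, where 27.9% of all features rose and 23.9% fell (51.8% in either direction). CUT866, on the strand of MBF1, a transcriptional coactivator, had 28.3, 28.5, 40.3 and 30.7 CPM in lsm1-ideg T60, against 13.1, 13.2, 11.4 and 14.2 CPM at T0 (log2 change 1.30 ± 0.33, adjusted p = 0.0419). CUT672 had 2.00, 1.62, 2.27 and 2.14 CPM in lsm1-ideg T60, against 0.888, 1.22, 1.14 and 0.546 CPM at T0 (log2 change 1.07 ± 0.29, adjusted p = 0.0498). Neither CUT had overlapping lsm1-ideg libraries, yet neither passed beyond wt (0.90 ± 0.47 and 0.59 ± 0.40, adjusted p = 0.698 and 0.795). The number of calls within lsm1-ideg was 2 to 12 when single libraries were left out. In wt, 0 CUTs were called between T60 and T0 by edgeR or DESeq2, with 45 at an unadjusted p under 0.05 and 0 of all features called.

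The difference between both degron strains was tested directly. The dcp2-ideg change exceeded the lsm1-ideg change for 89 CUTs and fell short of it for 48, where 15.2% and 13.3% of all features did (28.5% in either direction). With total counts as the scale these were 192 and 14 CUTs, beside 31.6% and 3.14% of all features, and with TMM factors from protein-coding features 103 and 28, beside 19.2% and 8.25%. Among strand-sharing CUTs the counts were 60 and 5 of 281, with a median difference of 0.75, and among lone CUTs 9 and 7 of 163, with a median of 0.10. The lone median did not keep its sign. It was -0.082 among features of at least 1 CPM in 4 libraries, -0.073 without lsm1-ideg T0 replicate 2, and -0.18 for the 69 lone CUTs with a mean of at least 1 CPM, of which 7 were above and 7 below. Of strand-sharing CUTs, 8 were below without dcp2-ideg T60 replicate 2 or lsm1-ideg T0 replicate 2, and 3 without dcp2-ideg T60 replicate 3, lsm1-ideg T0 replicate 1 or 3, or lsm1-ideg T60 replicate 2. Of lone CUTs, 12 were below without dcp2-ideg T60 replicate 2. These comparisons share the dcp2-ideg libraries with those above. CUT378 (chromosome XV, 458184 to 458648, plus strand), upstream of GYP1, a GTPase activator of membrane traffic, had the largest difference of the named strand-sharing CUTs, 2.46 ± 0.43 (adjusted p = 1.46e-04 in edgeR), and CUT526, described above, differed by 2.64 ± 0.50 (adjusted p = 3.07e-04). CUT378 had 2.38, 3.70, 3.04 and 2.82 CPM in dcp2-ideg T60 against 1.03, 1.13, 0.739 and 0.878 CPM at T0, and 0.642, 0.843, 0.650 and 0.314 CPM in lsm1-ideg T60 against 1.01, 1.22, 1.33 and 0.706 CPM at T0. Its dcp2-ideg T60 libraries thus lay above its T0 libraries, as the naming rule required. Its lsm1-ideg T60 values ran from 0.314 to 0.843 CPM beside 0.706 to 1.33 CPM at T0, a change of -0.80 ± 0.31 that did not pass (adjusted p = 0.237).

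CUT001 differed by 2.42 ± 0.38 (adjusted p = 4.19e-05), with 5.96, 9.75, 4.69 and 5.66 CPM in dcp2-ideg T60 against 1.21, 1.50, 0.704 and 1.13 CPM at T0, and lsm1-ideg means of 1.13 ± 0.381 CPM at T60 and 1.05 ± 0.128 CPM at T0. CUT500, antisense to the recombination gene RAD55, differed by 2.35 ± 0.48 (adjusted p = 7.17e-04), and CUT423, upstream of AIM45, by 2.32 ± 0.57 (adjusted p = 0.00315). CUT431, described above, differed by 2.27 ± 0.69 (adjusted p = 0.0159), and was not called without lsm1-ideg T0 replicate 3 (adjusted p = 0.0510). CUT640 differed by 2.03 ± 0.48, CUT672 by 1.92 ± 0.40 and CUT122 by 1.82 ± 0.47, and CUT251 by 1.79 ± 0.56, which was not called without lsm1-ideg T0 replicate 3 (adjusted p = 0.0653). CUT483 differed by 1.82 ± 0.61 and was not called in 7 of 24 fits that left out a library, with adjusted p up to 0.0726. Of lone CUTs, CUT199 differed by 2.39 ± 0.45, CUT605 by 1.84 ± 0.44, CUT105 by 1.27 ± 0.34 and CUT124 by 1.26 ± 0.39. The lone CUT304, antisense to INP2, a peroxisome receptor for a myosin motor, differed by 1.84 ± 0.49 (adjusted p = 0.00646), with 3.32 ± 0.601 CPM in dcp2-ideg T60 against 1.03 ± 0.471 CPM at T0. Its lsm1-ideg means were 1.00 ± 0.151 CPM at T60 and 1.11 ± 0.227 CPM at T0. Differences below 0 were -1.69 ± 0.36 for CUT559, -1.66 ± 0.46 for CUT648, -1.48 ± 0.32 for CUT158, -1.32 ± 0.35 for CUT416, -1.30 ± 0.31 for CUT545, -0.96 ± 0.36 for CUT786 and -0.93 ± 0.31 for CUT037. CUT545 lies antisense to VMA8, a subunit of the vacuolar proton pump, at 3.77% of its count per base. CUT416 and CUT545 were not called under total count scaling (adjusted p = 0.0686 and 0.0603), nor was CUT037 (adjusted p = 0.291), and CUT786 was not called in 13 of 24 fits that left out a library.

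At T0, each degron strain against wt, 1 CUT was called per strain, beside 0.824% of all features for dcp2-ideg (0.586% higher and 0.238% lower) and 0.348% for lsm1-ideg (0.195% higher and 0.153% lower). CUT207, antisense to the tagged gene LSM1, was lower in lsm1-ideg before any treatment. It had 1.14, 1.02, 1.41 and 1.30 CPM in lsm1-ideg T0, against 2.83, 2.86, 3.42 and 1.85 CPM in wt T0 (log2 change -1.17 ± 0.26, adjusted p = 0.0416 in edgeR). It stayed at 1.03, 1.03, 1.38 and 0.589 CPM in lsm1-ideg T60, and its dcp2-ideg libraries ran from 2.18 to 4.07 CPM. LSM1 mRNA was also lower at T0, with 102 ± 2.03 CPM in lsm1-ideg and 154 ± 6.25 CPM in wt (log2 change -0.60 ± 0.08, adjusted p = 1.13e-04). CUT207 lay at 5.53% of the LSM1 count per base, so the part of LSM1 reads in its count was not tested. CUT122 was higher in dcp2-ideg T0 than in wt T0, with 2.22, 1.05, 1.62 and 1.75 CPM against 1.05, 0.542, 0.514 and 0.395 CPM (log2 change 1.42 ± 0.34, adjusted p = 0.0425), where the lowest dcp2-ideg T0 library matched the highest wt T0 library. Both calls were lost in over 50% of the fits that left out a library.

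Over the whole class, the early part of CUTs held more Nab3 motifs than that of other transcripts. The first 200 bases of the 760 CUTs at least that long held a median of 4 matches to TCTT or CTTG on the sense strand, against 2 in 1658 XUTs, 2 in 797 SUTs and 1 in 5778 protein-coding features. A match to at least 1 Nab3 motif was found in 94.3% of CUTs, 84.1% of XUTs, 81.2% of SUTs and 74.7% of coding features. For the Nrd1 motifs the shares were 86.3%, 81.7%, 79.7% and 71.3%. Strand-sharing CUTs held a Nrd1 motif in 89.9% and lone CUTs in 77.2% of starts, and a Nab3 motif in 91.9% and 96.6%. The base composition was close, with a median GC content of 37% for CUTs, 39% for XUTs, 38% for SUTs and 38.5% for coding features. Only the sense strand was searched, since the proteins bind RNA, and a match is not a binding site.

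**Figure D5:**
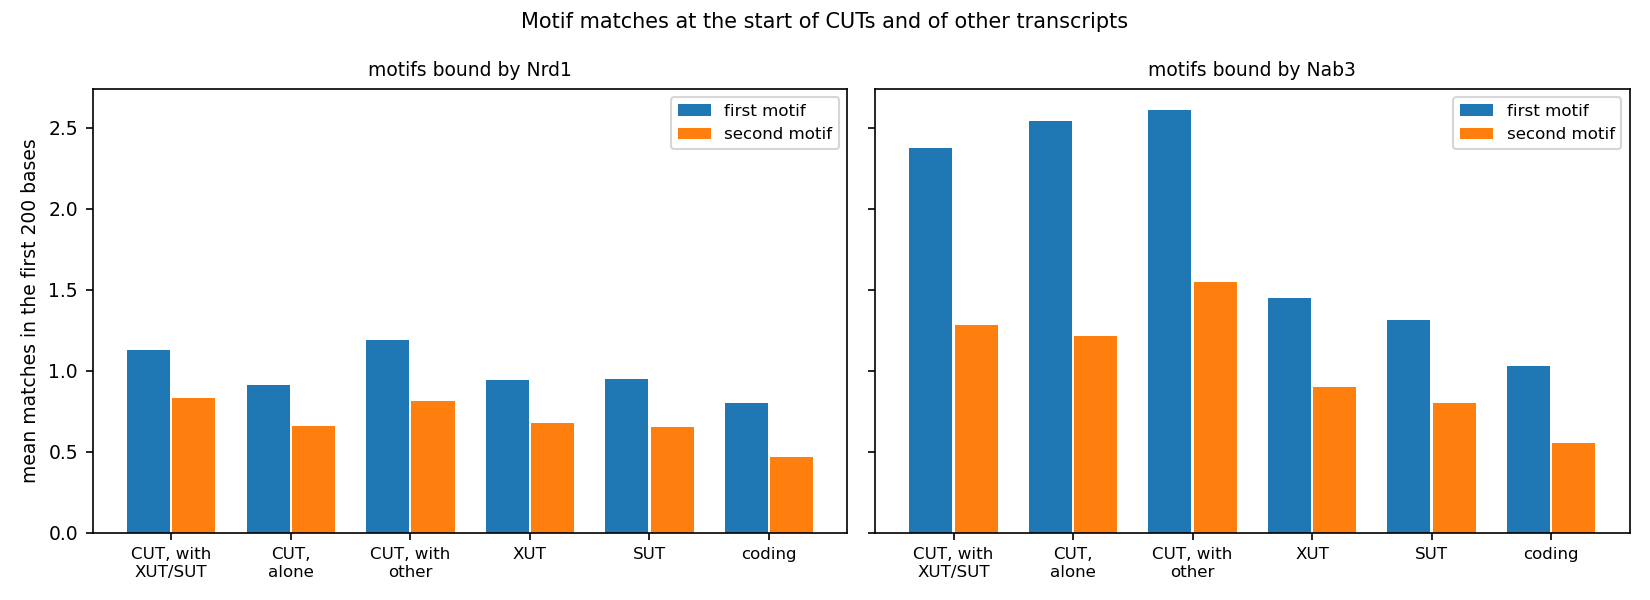
Mean number of motif matches in the first 200 bases (vertical axis, from 0) of CUTs by class, XUTs, SUTs and protein-coding features (horizontal axis), for Nrd1 (left, GTAA first and GTAG second) and Nab3 (right, TCTT first and CTTG second). All 3 CUT classes hold 2.38 to 2.61 matches to TCTT, against 1.45, 1.32 and 1.03 in XUTs, SUTs and coding features.

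The factors that end, tail and degrade CUTs were read from a list of 44 genes, all tested. In dcp2-ideg beyond wt, 1 of the 44 rose and 21 fell in edgeR, with a median log2 change of -0.43, where 18.5% of all features rose and 15.9% fell and the median of protein-coding features was -0.18. These values depend on the TMM factors, and the list was not summarised under other scales. With total counts as the scale, only 4.16% of all features fell and their median was 0.57. With TMM factors from protein-coding features, 9.83% fell and the median was 0.28. Of 13 genes of the nuclear exosome and its cofactors, 9 fell. RRP6, the nuclear 3'-5' exonuclease that acts on CUTs, averaged 93.9 ± 20.8 CPM in dcp2-ideg T60 and 147 ± 19.9 CPM at T0 (log2 change -0.57 ± 0.17, adjusted p = 0.0118). Of 5 TRAMP genes, 3 fell, with MTR4, the RNA helicase, at 155 ± 16.8 CPM in dcp2-ideg T60 and 309 ± 16.6 CPM at T0 (log2 change -1.06 ± 0.12, adjusted p = 5.84e-07). None of NRD1, NAB3 and SEN1 passed, with log2 changes of 0.42, 0.15 and -0.23. Of 16 genes of decapping and 5'-3' decay, 7 fell, DCP1 and DCP2 among them, and EDC2, an activator of decapping, rose by 0.56 ± 0.21. XRN1 had a log2 change of -0.10 ± 0.27 that did not pass (adjusted p = 0.820). Of 4 Ski factors of the cytoplasmic exosome, SKI3 and SKI7 fell, and none of the 3 genes of nonsense-mediated decay passed. In lsm1-ideg, 0 of the 44 were called beyond wt. These mRNA changes stood in the same libraries as those of the CUTs, and their part in them was not tested.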

How the data were processed

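Per the labels' protocols, hot phenol extraction was followed by poly(A) selection and a dUTP library that keeps the strand. The authors deposited whole-number counts per feature, not normalized, with the annotation of the features. The submitters' processing notes name STAR, featureCounts and the build sacCer3. Their versions and settings are not given in the sources used here. All 24 columns matched a sample by library name, and groups came from the titles.

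Features that passed edgeR's filterByExpr were tested, 11776 of 12289 and 907 of 925 CUTs. The 18 CUTs left out were 1 strand-sharing, 4 lone and 13 other CUTs. The 24 libraries entered 1 fit of edgeR 4.0.16 (quasi-likelihood, under R 4.3.3), with TMM factors, a mean per group and 18 residual degrees of freedom. The 8 comparisons gave two-sided p-values with the Benjamini-Hochberg adjustment over the 11776 features, and a call is an adjusted p under 0.05. The SE is the size of the log2 change divided by the square root of F. The script was tested on simulated data. Depth, 41.8 M to 83.9 M counts per library, limits CUTs of low level.

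Positions are those of the deposited annotation. In the R64 genome, the coding sequences of 93.2% of 5777 coding features lay inside the feature. No CUT had a near-identical copy (95% identity over 50% of its length, blastn 2.17.0), and 125 overlapped another CUT on the strand.

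Named CUTs were the 5 highest and 3 lowest called changes per class in the comparisons between strains (mean of at least 1 CPM, T60 and T0 of the first strain not overlapping), the 5 of highest level per length in each class, and the 2 highest and 2 lowest called in each other comparison. Members, classes and lists were chosen with earlier results of these data known. Alternatives were other scalings and filters, DESeq2 1.42.0, a replicate block, other overlap rules and left-out libraries.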

Additional observations from a re-analysis of the deposited data

Results flagged for a closer look

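Among 246 groups of 4 libraries (36 named CUTs and 5 class sums), 17 had a library far from the other 3, where chance flags about 1 in 20 groups. In dcp2-ideg T60 these were CUT105 in replicate 2 (7.94 CPM, others 4.92 to 5.37), CUT442 in replicate 4 (3.33, others 2.31 to 2.45), CUT465 in replicate 4 (10.7, others 8.49 to 8.75) and CUT545 in replicate 4 (3.84, others 2.18 to 2.40). In dcp2-ideg T0 they were CUT696 in replicate 2 (0.150 CPM, others 0.514 to 0.564), CUT866 in replicate 4 (39.0, others 8.90 to 13) and the sum of CUTs on the strand of coding features in replicate 4 (768 CPM, others 538 to 566). In lsm1-ideg they were CUT431 in T60 replicate 2 (0.556 CPM, others 1.03 to 1.08), CUT199 in T0 replicate 1 (0.634, others 1.43 to 1.59) and CUT350 in T0 replicate 2 (8.25, others 5.42 to 5.88).

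In wt T60 they were CUT122 in replicate 1 (0.693 CPM, others 0.295 to 0.342), CUT251 in replicate 3 (0.228, others 0.573 to 0.639), CUT350 in replicate 3 (11.5, others 7.43 to 7.84) and CUT423 in replicate 2 (0.318, others 1.16 to 1.34). In wt T0 they were CUT500 in replicate 3 (0.632 CPM, others 1.00 to 1.08), CUT545 in replicate 4 (2.75, others 4.52 to 4.86) and CUT554 in replicate 2 (16.3, others 21.1 to 21.8). CUT554 shares its strand with XUT_5R-126 and RPL34A, a ribosomal protein gene.

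The dcp2-ideg change differed from the lsm1-ideg change by edgeR's test of that difference for 25 named CUTs. The difference on the log2 scale was 2.64 for CUT526, 2.46 for CUT378, 2.42 for CUT001, 2.39 for CUT199, 2.35 for CUT500, 2.32 for CUT423 and 2.27 for CUT431. It was 2.03 for CUT640, 1.92 for CUT672, 1.84 for CUT304, 1.84 for CUT605, 1.82 for CUT122, 1.82 for CUT483, 1.79 for CUT251, 1.27 for CUT105, 1.26 for CUT124, 1.03 for CUT651 and 0.90 for CUT465. Below 0, it was -0.93 for CUT037, -0.96 for CUT786, -1.30 for CUT545, -1.32 for CUT416, -1.48 for CUT158, -1.66 for CUT648 and -1.69 for CUT559.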

How the results depend on the processing

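The median difference of lone CUTs between the dcp2-ideg and lsm1-ideg changes reversed to -0.082 with a minimum of 1 CPM in 4 libraries, with 3 strand-sharing CUTs below the lsm1-ideg change. No other result reversed, apart from this median without 1 library (below). The numbers below are for dcp2-ideg beyond wt unless another comparison is named, and the cause of a change was not tested where none is given. With total count scaling, 259 CUTs rose and 1 fell, 192 were above and 14 below the lsm1-ideg change (strand-sharing 118 and 2, median 1.205; lone 19 and 1, median 0.56), 0 were called in dcp2-ideg at T0, 137 strand-sharing CUTs rose and 0 fell (median 1.32), and 34 lone CUTs rose and 0 fell (median 0.89). With TMM factors from protein-coding features, 11 CUTs fell, 28 were below the lsm1-ideg change (3 strand-sharing, median 0.90, and 3 lone), the strand-sharing median was 1.04, and 22 lone CUTs rose and 2 fell (median 0.59). With DESeq2 size factors, 5 strand-sharing and 10 lone CUTs fell. With a minimum of 1 CPM in 4 libraries, the lone median was 0.093 over fewer CUTs (97). With DESeq2's own test, 4 CUTs rose in lsm1-ideg beyond wt, 15 were called within lsm1-ideg and 2 in each strain at T0, 5 strand-sharing and 11 lone CUTs fell, and 8 strand-sharing CUTs were below the lsm1-ideg change. Without CUTs under 10% of the opposite strand, 1 strand-sharing (median 0.97) and 2 lone CUTs (median 0.67) fell, and 2 strand-sharing (median 0.94) and 2 lone CUTs (median 0.31) were below the lsm1-ideg change. Requiring 50% overlap gave 56 risers and 2 fallers of 172 strand-sharing CUTs (median 0.86), with 1 below the lsm1-ideg change (median 0.89).

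Added after seeing the data, leaving out wt T60 replicate 3 and dcp2-ideg T0 replicate 4 gave 14 calls within lsm1-ideg, 2 in lsm1-ideg at T0 and 5 strand-sharing fallers (median 0.98; against lsm1-ideg 0.88), and counting CUTs that overlap only CUT_GIM as lone gave 11 fallers, with 22 below the lsm1-ideg change. Same-numbered libraries were not paired by the labels. Over 60 pairs their deviations correlated at -0.31 to 0.63 (median 0.07, 15 above 0.1), and 20 of 24 libraries correlated best with their own number. With the replicate block, 139 CUTs rose and 35 fell, 2 were called at T0 in each strain, 5 strand-sharing CUTs fell, and 8 were below the lsm1-ideg change.

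Without single libraries, 0 to 1 CUTs rose in lsm1-ideg beyond wt, 2 to 12 were called within lsm1-ideg, 0 to 2 in each strain at T0, 2 to 5 strand-sharing and 4 to 10 lone CUTs fell, and 3 to 8 strand-sharing and 5 to 12 lone CUTs were below the lsm1-ideg change, with a lone median of -0.073 to 0.16. In fits of named CUTs without a library, 1070 calls were kept and 82 lost, among them CUT122 (17 of 24), CUT207 (13), CUT672 in lsm1-ideg (18) and CUT866 (9). Total count scaling ended 10 of 48 named calls.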
